A study of Mus musculus with 10 samples.

Results

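The genes described here encode 9 subunits of neuronal nicotinic acetylcholine receptors, Chrna2, Chrna3, Chrna4, Chrna5, Chrna6, Chrna7, Chrnb2, Chrnb3 and Chrnb4, and they were taken by name from the 27933 genes of a single-cell count table. All 9 were in the table. The cells came from retinas of mice at postnatal day 19 of the Chx10-cre-GFP strain, in which the Chx10 promoter drives Cre and GFP. Retinas were dissociated with papain, and living cells (Calcein Blue positive) without GFP, CD133 or CD73 were sorted and made into 10 droplet libraries that count the 3′ ends of transcripts. The labels give 3 batches, of 1, 5 and 4 libraries, and no treatment groups, so every comparison below is between kinds of cells within the same libraries. Nothing in the labels ties a library to an animal, so each p-value below reflects variation among libraries that could be technical.

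Nicotinic receptors are pentameric cation channels opened by acetylcholine. Alpha and beta subunits combine into receptors that differ in affinity, kinetics and calcium entry, and chaperones and prototoxins, small membrane-anchored proteins, act on their assembly and gating. In the retina acetylcholine is released by starburst amacrine cells, and nicotinic receptors are known on other amacrine cells and on ganglion cells.

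The table held 32523 cells and 171257947 unique molecular identifiers (UMIs), with 950 to 4738 cells and 6302659 to 26028492 UMIs per library, and median UMIs per cell from 3296.5 to 5717. Libraries shared 923 barcode sequences, carried by 1860 cells (5.719%). Cells were placed in 7 overlapping gates by the UMIs of other genes. The Gad gate (Gad1 and Gad2 together at least 2 UMIs, Slc6a9 at 0) marks GABAergic cells and held 16415 cells, and the Slc6a9 gate (Slc6a9 at least 2 UMIs, no Gad1 or Gad2) marks glycinergic cells and held 4556. The Chat gate (Chat and Slc18a3 together at least 2 UMIs) held 651 cells, the Gjd2 gate (at least 3) 1940, the Slc17a8 gate (at least 2) 666, the Vip gate (at least 5) 930 and the Cxcl14 gate (at least 2) 10433. Amacrine markers were present in every gate, Pax6 at 670 to 1124 CPM (UMIs of a gene per 1000000 UMIs of the gate) and Slc32a1 at 531 to 676, while the ganglion cell markers Rbpms, Slc17a6, Pou4f1, Pou4f2 and Pou4f3 reached at most 3.64 CPM in any gate. Nefm, a neurofilament gene also on the ganglion cell list, ranged from 17.2 CPM in the Chat gate to 55.2 in the Cxcl14 gate, and its part in the results was not tested. Gated cells differed in depth, with median UMIs of 7462 in the Chat gate, 6739 in the Cxcl14 gate and 3664 in the Slc6a9 gate, and shares of cells with a UMI are therefore also given after thinning each cell to 2000 UMIs, which kept the 26244 cells (80.69%) that had as many.

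Chrna5, Chrna3 and Chrnb4 lie side by side on chromosome 9, and Chrnb3 and Chrna6 on chromosome 8. In GRCm38 (GENCODE M21), Chrna5 is at chr9:54980880-55007779 on the plus strand, Chrna3 at chr9:55010111-55026562 and Chrnb4 at chr9:55028154-55048779, both on the minus strand. Chrna5 and Chrna3 are 2331 bases apart and point towards each other, and 1591 bases separate Chrna3 from Chrnb4. Chrnb3 (chr8:27368711-27399730, plus) and Chrna6 (chr8:27403212-27413944, minus) are 3481 bases apart, also pointing towards each other. No annotated gene lies in any of these gaps. The other subunit genes stand alone, Chrna2 at chr14:66135039-66152948, Chrna4 at chr2:181018380-181043546, Chrna7 at chr7:63098692-63212569 and Chrnb2 at chr3:89746195-89764632. Chrnb2 overlaps Adar on the other strand, Chrnb4 overlaps Gm47877 on the other strand, and Chrna7 overlaps Gm44741 on its own strand. The counting of reads in overlaps with such neighbours is not given in the sources used here, so values of these 3 genes could include reads that belong to a neighbour.

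The 250 bases upstream of the RefSeq start of Chrna3 and of the first of 2 RefSeq starts of Chrna5 (GRCm38.p6) are printed 5′ to 3′ because both genes were high in the same group of cells, with matches to GGGCGG or its complement CCGCCC, the core of the motif bound by Sp1, in capitals. The Chrna3 window is chr9:55026563-55026812 on the minus strand and the Chrna5 window chr9:54980630-54980879 on the plus strand.
Chrna3: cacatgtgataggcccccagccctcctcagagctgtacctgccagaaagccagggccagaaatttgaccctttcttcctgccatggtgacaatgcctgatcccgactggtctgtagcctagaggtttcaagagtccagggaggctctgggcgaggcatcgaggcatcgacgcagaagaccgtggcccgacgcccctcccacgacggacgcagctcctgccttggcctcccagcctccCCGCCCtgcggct
Chrna5: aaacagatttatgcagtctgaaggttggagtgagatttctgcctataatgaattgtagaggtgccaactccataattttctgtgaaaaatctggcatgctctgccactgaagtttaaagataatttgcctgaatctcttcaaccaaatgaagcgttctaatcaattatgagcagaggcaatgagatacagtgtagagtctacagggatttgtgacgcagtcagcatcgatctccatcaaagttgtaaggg
The Chrna3 window had a GC content of 63.2% and 1 match, and the printed Chrna5 window 40% and none. The window of the other Chrna5 start (chr9:54981238-54981487), which lies within the annotated gene and is not printed, had 65.2% and 4 matches. Over 32851 promoter windows of this length, 32.74% held the motif on either strand. RefSeq windows were found for 6 of the 9 genes (not for Chrna2, Chrna6 and Chrnb3).

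The subunit genes differed in how many cells they were detected in. Over all cells Chrnb2, the beta subunit of many high-affinity receptors, had a UMI in 12.7% of cells, Chrna6 in 11.78%, Chrnb3 in 11.33%, Chrna2 in 6.878% and Chrna4 in 5.033%. Chrna3 was found in 2.288%, Chrna5 in 1.03%, Chrna7 in 0.3813% and Chrnb4 in 0.3382%. At least 1 subunit was seen in 36.24% of cells, and in 20.13% after thinning. After thinning that share was 24.85% in the Cxcl14 gate, 22.02% in the Vip gate, 21.12% in the Gad gate, 16% in the Slc6a9 gate, 14.09% in the Slc17a8 gate, 13.48% in the Gjd2 gate and 11.65% in the Chat gate, where the unthinned shares were 54.36%, 42.58%, 41.4%, 23.6%, 30.03%, 34.33% and 29.49%. No cell class known to lack all 9 genes was at hand as a measure of free RNA. Within the data, Chrna6 stood at 4.51 CPM in the cluster led by Gjd2 (cluster 1) and at 414 CPM in the cluster led by Rxfp3 (cluster 54), so its level differed between kinds of cells.

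**Figure D1:**
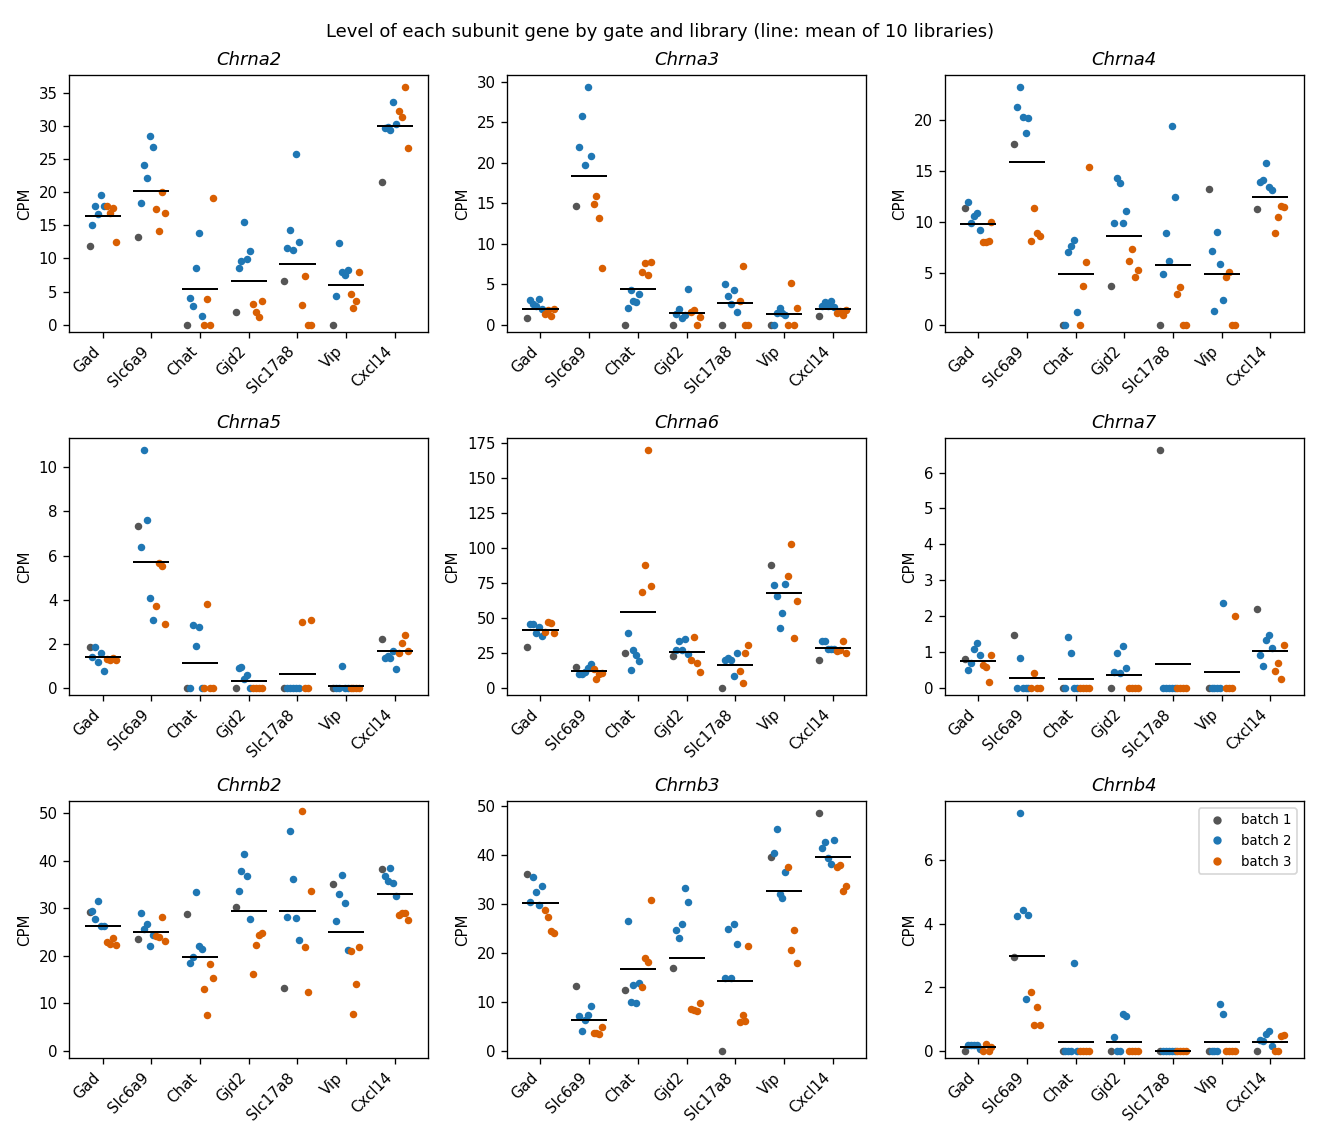
Level of each subunit gene (CPM, vertical axis, own scale per gene) in the 7 gates (horizontal axis); each point is 1 of 10 libraries, coloured by batch, and the line is their mean. Chrna3, Chrna5 and Chrnb4 are highest in the Slc6a9 gate (means 18.3, 5.71 and 2.99 CPM), Chrna2 and Chrnb3 in the Cxcl14 gate (30.1 and 39.5 CPM), and Chrna6 in the Vip gate (67.8 CPM).

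The order of the gates differed from subunit to subunit. Levels are CPM summed over the gated cells of a library, so fewer cells with a transcript and fewer transcripts per cell cannot be told apart. Chrna2 was highest in the Cxcl14 gate (30.1 ± 3.94 CPM, SD, n = 10 libraries), then in the Slc6a9 gate (20.2 ± 5.16), the Gad gate (16.4 ± 2.49), the Slc17a8 gate (9.23 ± 7.76), the Gjd2 gate (6.61 ± 4.93), the Vip gate (5.91 ± 3.55) and the Chat gate (5.36 ± 6.56). Chrna4 followed the order Slc6a9 (15.9 ± 5.89), Cxcl14 (12.4 ± 2.02), Gad (9.84 ± 1.43), Gjd2 (8.64 ± 3.76), Slc17a8 (5.86 ± 6.27), Chat (4.95 ± 4.96) and Vip (4.89 ± 4.21). Chrnb2 was the flattest of the well-detected subunits, from 33.1 ± 4.32 CPM in the Cxcl14 gate to 19.8 ± 7.42 in the Chat gate. Of 54 pairs of gates next to each other in these orders, 7 differed beyond the spread between libraries (exact two-sided sign-flip permutation test, Benjamini-Hochberg adjusted over the 54). They were Cxcl14 above Slc6a9 for Chrna2 (adjusted p = 0.02637), Slc6a9 above Chat for Chrna3 (0.03515), Cxcl14 above Gad for Chrna4 (0.03515), Slc6a9 above Cxcl14 for Chrna5 and for Chrnb4 (both 0.02637), Gad above Cxcl14 for Chrna6 (0.02637) and Gad above Gjd2 for Chrnb3 (0.0452). The remaining neighbouring pairs did not pass. Gates share cells, with 75.58% of Chat-gated cells also in the Cxcl14 gate. Of the Cxcl14-gated cells 67.87% were also in the Gad gate, the pair behind the Chrna4 and Chrna6 differences between those gates. The order of the gates was set by the same means that were then tested.

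The glycinergic and GABAergic gates had different sets of subunits. Chrna3, a partner of Chrnb4 in ganglionic receptors, ranged over libraries from 7.03 to 29.4 CPM in the Slc6a9 gate (median 17.7) and from 0.795 to 3.1 CPM in the Gad gate (median 1.93). Every library of the Slc6a9 gate was above every library of the Gad gate, and the fitted log2 fold change was 3.18 ± 0.15 (SE; edgeR adjusted p = 9.667e-14). Chrna6 went the other way, from 6.49 to 17.1 CPM (median 11.1) in the Slc6a9 gate against 29.2 to 47.3 (median 41.6) in the Gad gate. Chrnb3, an accessory subunit that assembles with Chrna6, had 3.45 to 13.2 CPM (median 5.65) against 24.2 to 36.1 (median 30.1). Neither gene's ranges overlapped, and the log2 fold changes were -1.83 ± 0.12 (edgeR adjusted p = 2.591e-11) and -2.35 ± 0.13 (7.167e-13).

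Chrna4 and Chrna2, alpha subunits that pair with Chrnb2, were also higher in the Slc6a9 gate, by less. Chrna4 rose by 0.66 ± 0.14 on the log2 scale (edgeR adjusted p = 0.0002887, higher in 9 of 10 libraries) and Chrna2 by 0.30 ± 0.09 (0.008639, 8 of 10). Chrnb2 had 25.1 ± 2.28 CPM in the Slc6a9 gate and 26.2 ± 3.28 in the Gad gate, a log2 difference of -0.01 ± 0.07 (edgeR adjusted p = 0.929). In all, 6 of the 9 genes passed the filter on low counts and 3 were called higher and 2 lower; of all 11250 genes tested, 61.2% were called, 32.1% higher and 29.1% lower. The median log2 fold change of the 6 was 0.15, and 0.03 over all genes tested.

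Chrna5, Chrnb4 and Chrna7 were not tested in that fit. Chrna5 had 2.89 to 10.8 CPM (median 5.6) in the Slc6a9 gate and 0.774 to 1.87 (median 1.32) in the Gad gate, with no overlap. Chrnb4 rested on 44 UMIs in the Slc6a9 gate (0.812 to 7.47 CPM) and 13 in the Gad gate (0 to 0.23 CPM), also with no overlap. Without the filter, the log2 fold changes were 1.97 ± 0.22 for Chrna5 (edgeR adjusted p = 9.277e-11) and 4.3 ± 0.45 for Chrnb4 (1.01e-11). Chrna7, the subunit of homomeric receptors, had 0 to 1.47 CPM (median 0, 3 UMIs) in the Slc6a9 gate and 0.169 to 1.24 (median 0.741, 78 UMIs) in the Gad gate, and its log2 fold change without the filter was -1.95 ± 0.70 (edgeR adjusted p = 0.02118, lower in 8 of 10 libraries).

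The difference of Chrna4 was larger in batch 2 than in batch 3. In the Slc6a9 gate Chrna4 stood at 20.7 ± 1.65 CPM in batch 2 (n = 5) and 9.29 ± 1.42 in batch 3 (n = 4). The batches did not overlap. Within batch 2 its log2 fold change was 1, and within batch 3 it was 0.11 (edgeR adjusted p = 0.63), a tested difference of -0.89 ± 0.22 (0.003305). Chrna2 had 0.48 in batch 2 and 0.06 in batch 3 (edgeR adjusted p = 0.71), but the difference between batches was not called (-0.43 ± 0.18, 0.1557). Its call over all libraries was lost without the 5% of cells with the most UMIs in each library (0.21, edgeR adjusted p = 0.08547).

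**Figure D2:**
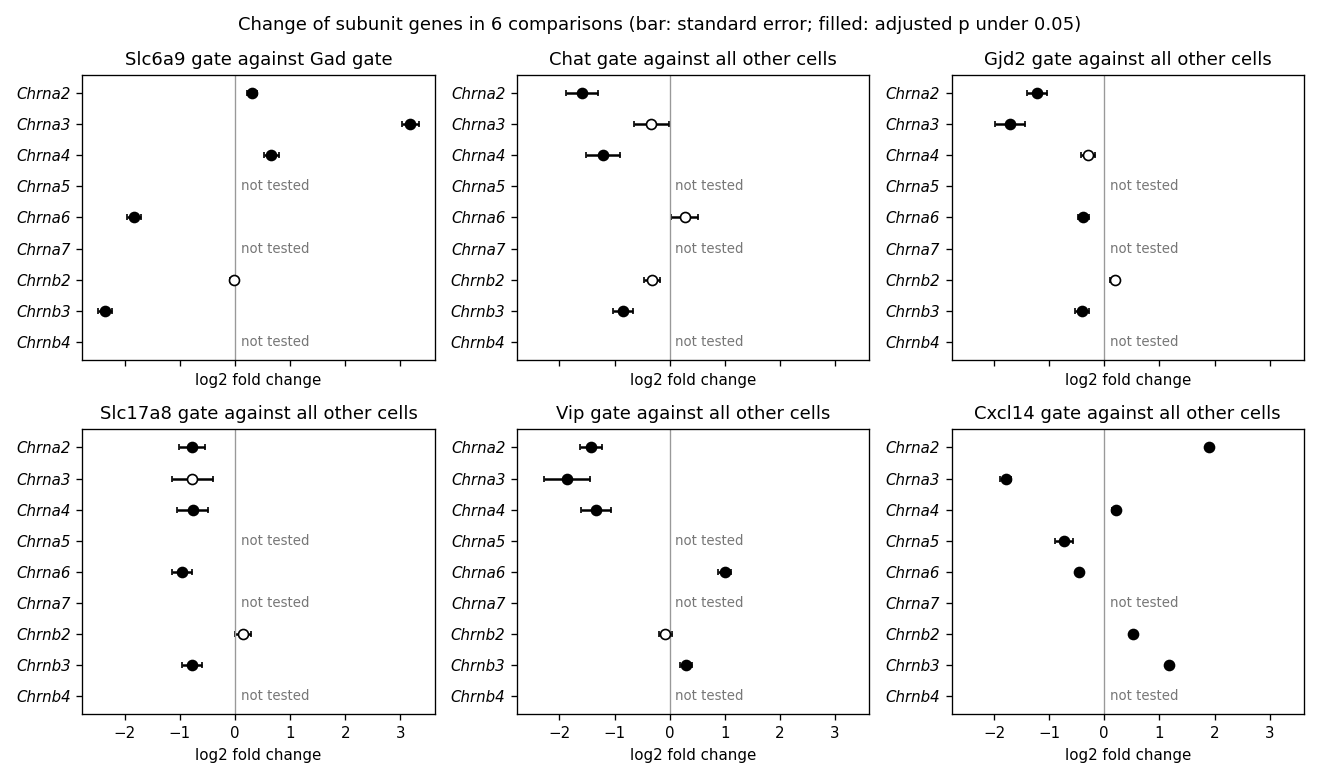
Log2 fold change of each subunit gene (horizontal axis) in the 6 comparisons, with its standard error as a bar; filled points had an edgeR adjusted p under 0.05, and genes with too few counts are marked as not tested. Chrna3 lies far to the right in the Slc6a9 panel (3.18) and to the left in the Gjd2, Vip and Cxcl14 panels, and Chrnb2 is a filled point in the Cxcl14 panel alone (0.52).

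Much of the signal in the Slc6a9 gate came from a small group of its cells. Cells were also clustered without the subunit genes, the pathway genes and the gating genes, and of 75 clusters, cluster 13 (727 cells, with Ptgds and Gm10631 among its leading genes) and cluster 19 (led by Gsta4, Vmn2r122 and Ebf1) stood out in values seen before they were chosen, so the following is a description. The 641 Slc6a9-gated cells of these clusters, 14.07% of the gate, held 88.02% of its Chrna4 UMIs, 77.27% of those of Chrna2 and of Chrna5, 72.92% of those of Chrna3 and 86.36% of those of Chrnb4. They held 19.38% of its Chrnb2 UMIs and 11.52% of its Chrna6 UMIs. In the rest of the gate Chrna3 stood at 5.79 ± 2.02 CPM (n = 10), Chrna2 at 4.34 ± 3.47, Chrna4 at 1.94 ± 1.34, Chrna5 at 1.28 ± 1.13 and Chrnb4 at 0.529 ± 0.811. The Gad gate had 16.4 CPM of Chrna2 and 9.84 of Chrna4. Outside the 2 clusters both genes were below the Gad gate, with no overlap of libraries (0 to 10.1 CPM against 11.9 to 19.6 for Chrna2, and 0 to 4.06 against 8.06 to 12 for Chrna4), opposite to the calls over the whole gate. The 2 clusters were chosen for high levels and left out of the Slc6a9 gate alone, which lowers its values by construction. The Gad gate kept its clusters of high Chrna2, such as cluster 6 (108.7 CPM pooled over its cells), so this does not compare the 2 gates evenly. Outside the 2 clusters Chrna5 (0 to 3.27 CPM) overlapped the Gad gate (0.774 to 1.87), as did Chrna3 (2.26 to 9.29 CPM), with a higher mean.

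Both clusters had Chrna3, Chrna4 and Chrnb4, with more Chrna2 in cluster 13 and more Chrna5 in cluster 19. Cluster 13 had Chrna2 at 161 ± 28.9 CPM (n = 10), Chrna4 at 116 ± 16.1, Chrna3 at 61.1 ± 16.8, Chrnb4 at 15.1 ± 5.79 and Chrna5 at 7.19 ± 5.35. Cluster 19 had Chrna3 at 79.2 ± 18 CPM, Chrna5 at 47.4 ± 12.7, Chrna4 at 40.1 ± 12.8 and Chrnb4 at 7.32 ± 4.79, and its pooled Chrna2 was 18.4 CPM. The medians over the 75 clusters were 2.3 CPM for Chrna2 and 5.03 for Chrna4. Of the cells of cluster 13, 44.43% were in the Slc6a9 gate and 0.5502% in the Gad gate, and 50.88% of cluster 19 were in the Slc6a9 gate. Chrna3 was also high in cluster 34, led by Car3, at 46.9 ± 24.3 CPM.

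Chrna6 and Chrnb3 were high in other clusters. Chrna6 reached 409 ± 95.1 CPM in cluster 37 (led by Sema3a, Rxfp3 and Rxrg, n = 9 libraries), 392 ± 104 in cluster 54 (Rxfp3, Prkcd and Pde2a, n = 8) and 318 ± 69.3 in cluster 49 (Cpne4, Cck and Tbx3os1, n = 8). Chrnb3 was at 209 ± 54 CPM in cluster 54 and at 120 ± 29.3 in cluster 37. Clusters with high Chrna6 did not all have Chrnb3, since in cluster 62 (Rgs5, Apela and Gulo) Chrna6 was at 243 ± 60 CPM (n = 6) and 2 of 99 cells had a Chrnb3 UMI. Chrna6 was also high in cluster 53 (Aga, Col8a1 and Vgf), at 299 ± 57.7 CPM.

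Clusters concentrated the subunits to different degrees. The 3 clusters with the highest level of a subunit held 61.61% of all Chrnb4 UMIs, from 4.323% of cells. The UMI and cell shares were 57.31% and 5.332% for Chrna3, 55.52% and 5.307% for Chrna5, 50.24% and 7.057% for Chrna2, and 33.2% and 3.471% for Chrna4. They were 18.97% and 2.321% for Chrna6, 11.52% and 3.149% for Chrnb3, and 6.401% and 2.18% for Chrnb2. The 3 clusters differ in size between subunits, so the UMI shares alone do not rank them. Chrnb2 lay between 12 and 53.3 CPM in every cluster. Chrna7 reached at most 5.55 CPM, in cluster 48 (Cbln4, Gabrb1 and Nr4a2), on 6 UMIs.

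Further clusters were among the highest for single alpha subunits. Chrna2 was at 108 ± 15.4 CPM in cluster 6 (Cxcl14, Tmem114 and Npnt) and at 95.3 ± 18.3 in cluster 27 (Crybb3, Maf and Kcna6), where Chrnb3 was at 86.5 ± 26.7. Chrna4 was at 103 ± 69.8 CPM in cluster 66 (Penk, Igf1 and Pdyn, n = 3) and at 77.6 ± 21.5 in cluster 39 (Tac2, Sst and Adra1b, n = 9). Chrna5 was at 16 ± 5.17 CPM in cluster 20 (C1ql3, Elavl2 and Adora1) and at 12.8 ± 11.7 in cluster 26 (Ppp1r17, Crabp1 and Krt24).

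**Figure D3:**
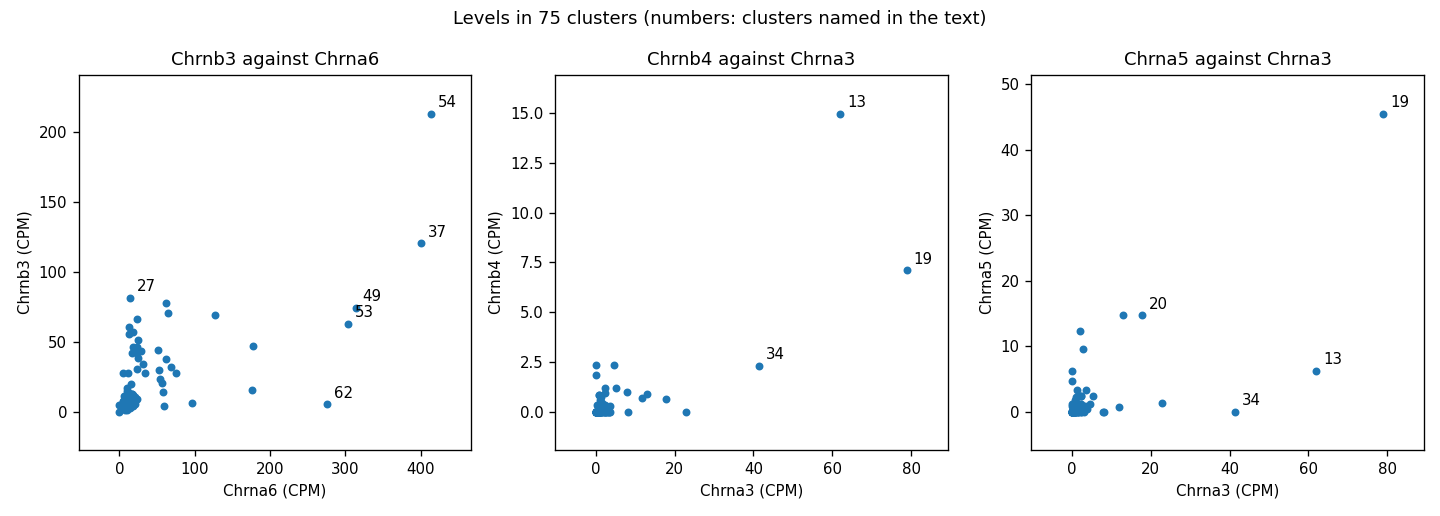
Pooled level (CPM) in each of 75 clusters, 1 point per cluster, of Chrnb3 against Chrna6, Chrnb4 against Chrna3, and Chrna5 against Chrna3; numbers are clusters named in the text. Clusters 13 and 19 stand apart for Chrna3 with Chrnb4, cluster 19 alone for Chrna3 with Chrna5, and cluster 62 is high for Chrna6 and near 0 for Chrnb3.

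Genomic neighbours had similar profiles over the clusters. On log2(CPM + 10) over the 75 clusters, Pearson's r was 0.75 for Chrna3 and Chrnb4, 0.61 for Chrna3 and Chrna5, and 0.59 for Chrna6 and Chrnb3. For Chrna5 and Chrnb4, the outer genes of the chromosome 9 group, it was 0.44. Among pairs on different chromosomes the highest was 0.49, for Chrna2 and Chrnb2. Clusters share libraries and differ in depth, so these values are descriptions. Among the 7282 genes compared, those most like each subunit were Il15, Gas7 and Tmem114 for Chrna2, Hs3st6, Aqp6 and Fgf18 for Chrna3, Pde2a, Man1a2 and Rims3 for Chrna4, Ccnc, Fgf18 and Hs3st6 for Chrna5, and Mab21l1, St6gal2 and 1700003F12Rik for Chrna6. For Chrna7 they were Tpsg1, Krt25 and Stk26, for Chrnb2 Arhgef12, Bsn and Ppp1r9b, for Chrnb3 Slit2, Tspan9 and Clmn, and for Chrnb4 Hs3st6, Fgf18 and Lrsam1. The highest r was 0.85, between Chrnb4 and Hs3st6, which encodes a heparan sulfate sulfotransferase.

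Some pairs of subunits were seen in the same cell more often than their separate shares would give. Each pair was compared, in cells thinned to 2000 UMIs, by the share of cells with the second gene among cells with and without the first. With Chrna6, 10.32% of cells had Chrnb3, against 4.306% without, higher in 10 of 10 libraries (exact two-sided sign-flip permutation test, adjusted p over 36 pairs = 0.02009). The 144 cells with both were 9.29% of the Chrna6 cells and 11.73% of the Chrnb3 cells. If the genes were independent over the pooled cells of all libraries, 72.53 would be expected. With Chrna2, 4.492% of cells had Chrna4 against 1.894% without (10 of 10 libraries, adjusted permutation p = 0.02009), and 8.989% had Chrnb3 against 4.491% (9 of 10, 0.02344). With Chrna3, 8.169% had Chrna4 against 1.911% (9 of 10, 0.02009).

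In all, 9 of the 36 pairs passed, 4 higher and 5 lower. Of the 5 lower, 4 had fewer than 5 expected joint cells (0.05639 to 2.362) and none observed. With a joint count of 0 no library can show a higher share. The test outcome was set by that count, so these 4 are not read as results. The other was Chrna5 with Chrna6, at 1.497% against 5.706%. Chrna3 and Chrnb4 had the largest ratio of shares, 19.18, on 7 joint cells (adjusted permutation p = 0.1607), and Chrna3 and Chrna5 had 5.973, also on 7 (0.0996). At 3000 UMIs, where 18 pairs passed, Chrna3 with Chrna5 did too (adjusted permutation p = 0.03723), and without thinning, where 23 passed, so did Chrna3 with Chrnb4 (0.008272). Chrna4 and Chrnb2, the pair of the most abundant brain receptor, were at 7.457% against 5.193% (8 of 10 libraries, 0.2812), and passed without thinning (0.004394). Of the 23 pairs that passed without thinning, 21 were higher. Cells with more UMIs show each gene more often, so passes without thinning cannot be told apart from depth. In Gad-gated cells alone, Chrna2 with Chrna4 stood at 0.9009% against 1.686% and Chrna3 with Chrna4 rested on 1 cell, whereas Chrna6 with Chrnb3 was at 9.479% against 5.458%.

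**Figure D4:**
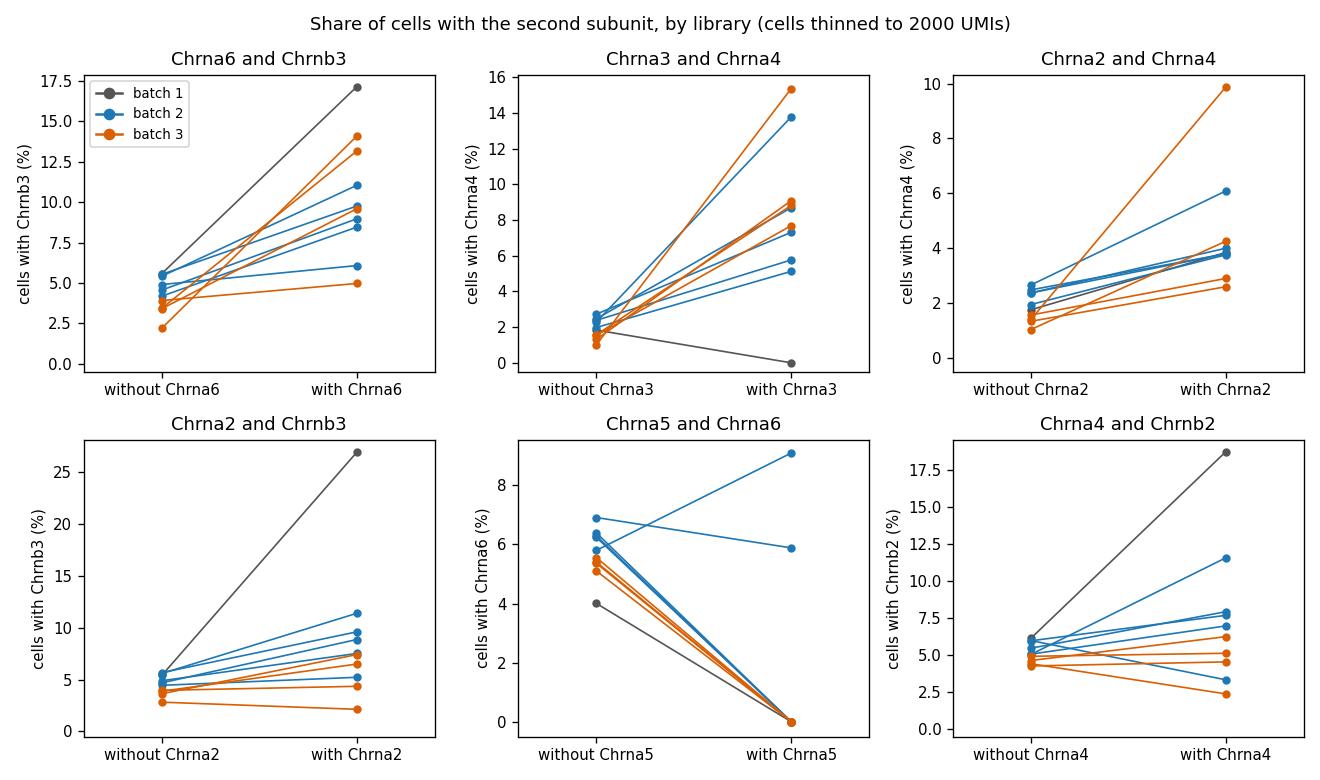
Share of cells (%) with the second subunit among cells without (left) and with (right) the first, in 6 pairs, after thinning to 2000 UMIs; each line is 1 of 10 libraries, coloured by batch. For Chrna6 with Chrnb3 all 10 lines rise.

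Joint counts were also taken within single clusters, without thinning, for 11 pairs, and each was above the count expected from the separate shares. Several lay close to it. In cluster 13, 134 of 727 cells had both Chrna2 and Chrna4, against 129.7 expected, and in cluster 19, 26 cells had both Chrna3 and Chrna5, against 24.81. For Chrna6 with Chrnb3 the counts were 63 against 60.21 in cluster 54, 65 against 63.92 in cluster 37 and 72 against 65.25 in cluster 49. Chrna3 with Chrnb4 departed most, with 9 cells against 4.134 in cluster 19 and 18 against 12.04 in cluster 13. Chrna3 with Chrna4 was at 28 against 20.43 in cluster 19 and 75 against 65.23 in cluster 13. In cluster 13, Chrna2 with Chrna3 was at 93 against 83.77, and Chrna2 with Chrnb4 at 30 against 23.93. Cells of a cluster differ in UMIs, and cells with more UMIs show each gene more often. Joint counts above the expected ones can therefore not be told apart from depth. These clusters were chosen for their levels, so no test was made.

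The Chat gate, whose cells carry the markers of starburst cells (Slc5a7 278 CPM, Sox2 264 and Isl1 810), was low for Chrna2, Chrna4 and Chrnb3. Chrna2 ranged from 0 to 19.2 CPM over libraries (median 3.32) against 13.9 to 21.7 (median 18.7) in all other cells. Chrna4 ranged from 0 to 15.4 CPM (median 4.94) against 8.65 to 14 (11.8), and Chrnb3 from 9.69 to 30.7 (13.6) against 20.1 to 33.2 (29.1). All 3 were lower in 9 of 10 libraries, although the ranges overlapped. The log2 fold changes were -1.59 ± 0.29 for Chrna2 (edgeR adjusted p = 8.533e-05), -1.20 ± 0.31 for Chrna4 (0.002849) and -0.85 ± 0.18 for Chrnb3 (0.0004236).

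Of the 6 genes tested there, none was called higher and 3 lower, where 34.7% of all 11416 genes were called, 16.8% higher and 18% lower. Chrna6 (0.27 ± 0.24), Chrna3 (-0.33) and Chrnb2 (-0.32 ± 0.14) were not called (edgeR adjusted p = 0.4242, 0.476 and 0.0769). Chrnb2 was called lower without library 4 (-0.49, edgeR adjusted p = 0.01715) and without the 5% of cells with the most UMIs (-0.58, 0.007954), and Chrna3 without cells bearing ganglion, bipolar or Müller markers (-1.07, 0.03567). In batch 3 alone, where the gate held 129 cells, the calls of Chrna2 (-1.48, edgeR adjusted p = 0.07059), Chrna4 (-0.64, 0.6366) and Chrnb3 (-0.13, 0.897) were lost.

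Chrna6 differed by batch in the Chat gate. It had 12.7 to 38.9 CPM in the 6 libraries of batches 1 and 2, and 68.5, 87.5, 170 and 73 CPM in the 4 of batch 3. The batch 3 libraries were all above the others. Against other cells of the same libraries, its log2 fold change was -0.54 in batch 2 (edgeR adjusted p = 0.01119) and 1.53 in batch 3 (3.414e-09), a tested difference of 2.07 ± 0.27 (4.564e-06).

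The make-up of the gate moved with this. Cluster 17 (led by Rims1, Isl1 and Igfbp7) held 80.34% of the Chat-gated cells, and in these Chrna6 was at 10.2 CPM. In the 128 cells outside it Chrna6 was at 136 CPM, and 36 cells of cluster 49 held 113 of the gate's 185 Chrna6 UMIs. Cells outside cluster 17 made up 7.692% of the gate in batch 1, 11.02 to 23.21% in the libraries of batch 2 and 28.21 to 70.59% in those of batch 3. Inside cluster 17, Chrna6 was at 10.6 CPM in batch 2 and 4.97 CPM in batch 3. Other subunits were split in the same way. Of the gate's Chrna3 UMIs, 3 were inside cluster 17 (0.763 CPM) and 16 outside (15 CPM). Chrnb3 was at 8.91 CPM inside and 37.6 outside, and Chrna4 at 3.56 and 11.3. Chrna2, at 5.85 and 6.58, and Chrnb2, at 21.1 and 26.3, differed less.

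**Figure D5:**
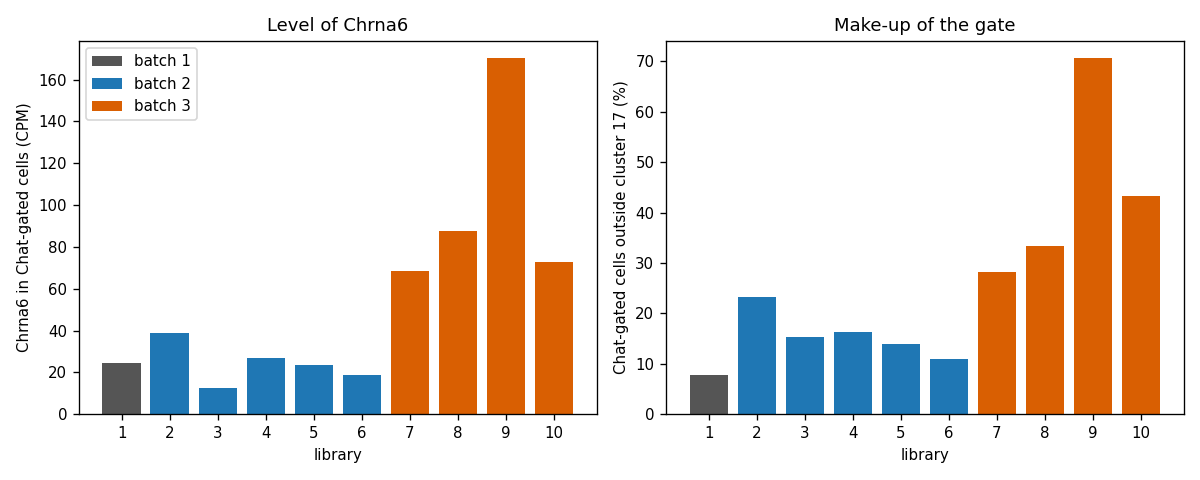
Chrna6 in Chat-gated cells (CPM, left) and share of those cells outside cluster 17 (%, right) in each of 10 libraries, coloured by batch. The 4 libraries of batch 3 have 68.5 to 170 CPM and 28.21 to 70.59% outside the cluster.

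Gjd2, a gap junction protein of AII cells, marked a gate in which Chrna2, Chrna3, Chrna6 and Chrnb3 were lower than in other cells and Chrnb2 was not. Chrna2 ranged from 1.16 to 15.5 CPM (median 6.05) against 14.4 to 22.5 (19.1) in all other cells, and was lower in 10 of 10 libraries. Chrna3 ranged from 0 to 4.44 CPM (1.26) against 3.81 to 6.85 (5.13), also lower in 10 of 10. Both genes were low in each library. Their log2 fold changes were -1.22 ± 0.19 (edgeR adjusted p = 1.568e-05) and -1.71 ± 0.28 (2.981e-05). Chrna6 (-0.38 ± 0.10, edgeR adjusted p = 0.00321) and Chrnb3 (-0.40 ± 0.13, 0.01451) were lower by less, each in 9 of 10 libraries. The Slc6a9 gate held 48.14% of the Gjd2-gated cells. By mean, Chrna6 (25.4 against 11.7 CPM) and Chrnb3 (18.9 against 6.31) were higher in the Gjd2 gate than in the Slc6a9 gate. Chrna2 (6.61 against 20.2) and Chrna3 (1.4 against 18.3) were lower. Within the Slc6a9 gate 2 subunit genes were tested, and 1 was called lower. Of 6 tested, 4 were called lower, none higher and 2 not (Chrna4 and Chrnb2, both at an edgeR adjusted p of 0.0603), against 48.4% called of 11647 genes, 23.9% higher and 24.5% lower.

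The other two subunits of the Gjd2 comparison changed calls with the cells and libraries used. Chrnb2 was at 29.5 ± 7.92 CPM in the gate and 27.6 ± 3.01 outside it, a log2 difference of 0.19 ± 0.08. It was called higher in batch 2 (0.32, edgeR adjusted p = 0.002514) but not in batch 3 (-0.09, 0.7015), and was also called higher without library 1, 7, 8 or 9 (0.21 to 0.25). Chrna4 had a log2 difference of -0.29 ± 0.12. It was called lower without the 5% of cells with the most UMIs (-0.82, edgeR adjusted p = 0.0001425), without cells bearing ganglion, bipolar or Müller markers (-0.995, 3.926e-05), with 1 UMI more in the gate (-0.49, 0.01897) and without library 3 or 4 (both -0.36).

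The gate drew on cells of several clusters. Clusters 1, 70 and 72 held 62.22% of it, 53.99% in batch 2 and 75.89% in batch 3. In these cells Chrna6 was at 5.36 CPM, Chrna2 at 1.79, Chrnb3 at 3.9 and Chrnb2 at 23.4, and in the rest of the gate at 41.3, 12.7, 33.5 and 37.1. The log2 fold change of Chrna2 was -0.83 in batch 2 and -2.76 in batch 3 (difference -1.93 ± 0.40, edgeR adjusted p = 0.001129). For Chrnb3 it was -0.13 in batch 2 (edgeR adjusted p = 0.32) and -1.34 in batch 3 (difference -1.20 ± 0.24, 0.00056). The gate also took 14.59% of its cells from the 5% with the most UMIs in each library.

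The Slc17a8 gate, of cells with the vesicular glutamate transporter VGLUT3, was lower than all other cells for 4 subunits. Chrna6 had 0 to 30.7 CPM (median 19.9) against 26.3 to 38.5 (34.9), and Chrnb3 0 to 25.9 (15) against 20.3 to 33.2 (29), both lower in 10 of 10 libraries. The log2 fold changes were -0.96 ± 0.18 (edgeR adjusted p = 7.046e-05) and -0.78 ± 0.18 (0.001165). By mean, neither gene was below the Slc6a9 gate (Chrna6 16.6 against 11.7 CPM, Chrnb3 14.3 against 6.31). These 2 differences did not pass (adjusted permutation p = 0.4315 and 0.1431). Chrna2 (9.23 against 20.2 CPM) and Chrna4 (5.86 against 15.9) were below it. A comparison within the Slc6a9 gate gave no value. Chrna2 (-0.78 ± 0.23, edgeR adjusted p = 0.01087) and Chrna4 (-0.77 ± 0.28, 0.041) were called over all libraries but not in batch 2 alone (0.16 and 0.28), and the call of Chrna4 was lost when any 1 of 7 of the libraries was left out. Of 6 tested, 4 were called lower, against 25.1% called of 11459 genes, 10.6% higher and 14.5% lower. Chrnb4 had no UMI in the 666 cells, which allows a share of up to 0.4505% of cells with a UMI. Summed bipolar cell markers were 117 ± 69.6 CPM in this gate and 45.5 over all cells, and their part in these differences was not tested.

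The Vip gate, of cells with vasoactive intestinal peptide, had the highest mean Chrna6, not separated from that of the Chat gate (adjusted permutation p = 0.8127). In batch 3 the Chat gate was higher (99.8 against 69.9 CPM). The 10 libraries of the Vip gate ranged from 35.4 to 103 CPM (median 69.8) against 23.4 to 37.2 (33.1) in all other cells. Chrna6 was higher in 10 of 10, with a log2 fold change of 1 ± 0.11 (edgeR adjusted p = 1.689e-09). Chrna2 fell to 0 to 12.4 CPM (6.06) from 13.8 to 21.9 (18.8), with no overlap (-1.42 ± 0.20, edgeR adjusted p = 2.419e-07). Chrna6 and Chrna2 thus lay on opposite sides of the other cells. Chrna3 (-1.86 ± 0.42, edgeR adjusted p = 0.0005668) and Chrna4 (-1.33 ± 0.27, 0.0001303) were lower, and Chrnb3 was higher by 0.29 ± 0.11 (0.04049, 8 of 10 libraries), a call not made in either batch alone (0.09075 in batch 2 and 0.7149 in batch 3) and lost when any 1 of 7 of the libraries was left out. Chrna3 was not called in batch 3 alone (-1.26, edgeR adjusted p = 0.3442), and Chrna2 without cells bearing ganglion, bipolar or Müller markers (-1.20, 0.05922). Of 6 tested, 2 were called higher and 3 lower, against 25.6% called of 11429 genes, 12.5% higher and 13.1% lower. Chrnb2 was not called (-0.08, edgeR adjusted p = 0.716). The 2 clusters led by Vip (18 and 28) held 81.18% of the gate and had Chrna6 at 54.9 CPM, and the other cells had 89.7. The 2 clusters differed. Over all its cells cluster 18, which gave 54.95% of the gate, had Chrna6 at 62.5 CPM and Chrnb3 at 37.3, whereas cluster 28, which gave 26.24%, had 9.67 and 5.69, below the means over all cells of 34 and 27.2 CPM.

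The Cxcl14 gate, named for a chemokine gene and holding 32.08% of cells, had the highest mean Chrna2, Chrnb3 and Chrnb2. Against the gate next in order, Chrna2 passed (adjusted permutation p = 0.02637), and Chrnb3 (0.06592) and Chrnb2 (0.1516) did not. Chrna2 ranged from 21.5 to 36 CPM (median 30.2) against 7.02 to 10.5 (8.01) in all other cells, and Chrnb3 from 32.6 to 48.5 (38.8) against 11.7 to 22.1 (18.5). Chrnb2 ranged from 27.5 to 38.5 CPM (33.9) against 20.5 to 26.3 (23). None of these 3 ranges overlapped. The log2 fold changes were 1.90 ± 0.06 (edgeR adjusted p = 2.211e-14), 1.18 ± 0.06 (2.056e-12) and 0.52 ± 0.04 (8.629e-10). Chrna4 was higher by 0.21 ± 0.07 (edgeR adjusted p = 0.01072), with adjusted p of 0.0504 in batch 2 and 0.0575 in batch 3, and its direction turned without the 5% of cells with the most UMIs (-0.08, edgeR adjusted p = 0.45).

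In the same comparison Chrna3 was lower, at 1.1 to 2.93 CPM (median 2.04) against 5.33 to 9.57 (7.3), with no overlap. Its log2 fold change was -1.79 ± 0.10 (edgeR adjusted p = 8.989e-12). Chrna5 (-0.72 ± 0.16, edgeR adjusted p = 0.0008686) and Chrna6 (-0.46 ± 0.05, 5.825e-07) were lower too. The Gad gate held 67.87% of the Cxcl14-gated cells. Mean Chrna3 was 1.98 CPM in both gates. Chrna5 was at 1.65 CPM in the Cxcl14 gate and 1.38 in the Gad gate (adjusted permutation p = 0.2171). Only Chrna6 of the 3 was lower in the Cxcl14 gate than in the Gad gate (28.2 against 41.1 CPM). Chrna5 was not called in batch 3 alone (-0.26, edgeR adjusted p = 0.4297). The call of Chrna6 was lost without cells bearing ganglion, bipolar or Müller markers (-0.14, edgeR adjusted p = 0.2488), but not when the Müller list was shortened to 3 genes. Of 7 genes tested, 4 were called higher and 3 lower, against 58.8% called of 12972 genes, 28.5% higher and 30.4% lower. Cells of 5 clusters, chosen after their values were seen (6, 11, 15, 27 and 43), were 29.53% of the gate and held 73.66% of its Chrna2 UMIs and 42.16% of those of Chrnb3. Cells in this gate had a median of 6739 UMIs against 3501 outside, and CPM are per UMI of the same cells.

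Other genes of acetylcholine signalling were examined as a list chosen with earlier results known. Between the Slc6a9 and Gad gates, where 61.2% of all genes tested were called, 32.1% higher and 29.1% lower, 4 of the 5 genes of acetylcholine synthesis and breakdown were tested, of which 1 was higher and 3 lower. Ache, which breaks acetylcholine down, was the 1 higher (0.44), and Slc5a7 (-4.62 ± 0.28), Chat (-3.31 ± 0.26) and Slc18a3 (-2.99 ± 0.22) were the 3 lower. Of 11 chaperones and prototoxins, 9 were tested, 4 higher, 3 lower and 2 not called, so the list went in both directions. The 3 lower were Lypd6b (-2.55 ± 0.24, edgeR adjusted p = 1.062e-08), the largest change of the list, Lynx1 (-0.40) and Nptn (-0.11). Lypd1, a prototoxin that binds nicotinic receptors, was at 79.9 ± 8.28 CPM against 23 ± 2.01 (log2 1.84 ± 0.05, edgeR adjusted p = 2.951e-17), and Ly6h, another, at 651 against 321 (1.04 ± 0.04, 1.864e-15). Of 3 muscarinic receptors tested 2 were lower, led by Chrm1 (-3.58 ± 0.22), and the 7 other nicotinic subunits, which include those of muscle, were at most 0.574 CPM and not tested.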

How the data were processed

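The authors deposited a table of UMI counts per gene and cell, not normalized, made with Cell Ranger 2.1.0 and mm10 per the submitters' processing notes; its cell filter is not given in the sources used here, and the cell with the fewest genes had 601. No doublet caller was run. Counts were summed per library and gate, for libraries with at least 10 gated cells, and tested with edgeR 4.0.16 in R 4.3.3 (TMM, filterByExpr, quasi-likelihood test, library as block, since both sides come from the same library; Benjamini-Hochberg over all genes tested, threshold 0.05). The SE is the log2 fold change divided by the square root of the F statistic. CPM are UMIs per 1000000 UMIs of the gate. Pairs of gates and of subunits were tested by exact two-sided sign-flip permutation over libraries, whose smallest p is 0.001953 with 10 libraries. Clusters were found with scanpy 1.11.5 and leidenalg 0.10.2 at resolution 2, chosen after seeing the 92 clusters of resolution 3. Scripts were tested on simulated data.

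The subunit genes, pathway lists and markers were chosen with earlier results of these data known. Named were all 9 subunits, the genomic neighbour pairs, Chrna4 with Chrnb2, the 5 pairs with the largest ratio of shares, the 3 clusters of highest level and the 3 most similar genes; further clusters and pairs were named after their values were seen. Alternatives were DESeq2 1.42.0, its size factors in edgeR, no filter, no block, single batches, stricter gates, other comparison cells, cells left out and libraries left out.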

Additional observations from a re-analysis of the deposited data

Results flagged for a closer look

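Library values of each subunit gene were compared within each gate (62 groups of 10 libraries with a nonzero value), and in 6 of them 1 library lay farther from the others than Dixon's 95% critical value allows, which by chance is met in about 1 of 20 groups. Chrna6 in the Chat gate was at 170.1 CPM in library 9 (28 UMIs from 17 cells), where the other libraries had 12.7 to 87.5. The other 5 rest on 8 UMIs or fewer. Chrna3 in the Gjd2 gate was at 4.435 CPM in library 6 (8 UMIs), and in the Vip gate at 5.149 CPM in library 8 (2 UMIs). Chrna5 in the Vip gate was at 1.001 CPM in library 4 (1 UMI), Chrna7 in the Slc17a8 gate at 6.632 CPM in library 1 (1 UMI) and Chrnb4 in the Chat gate at 2.768 CPM in library 5 (2 UMIs).

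Batches 2 and 3 were compared by an interaction term for 40 combinations of gene and comparison, and 5 differed (edgeR, Benjamini-Hochberg adjusted). The differences, batch 3 minus batch 2 on the log2 scale, were -0.8925 for Chrna4 between the Slc6a9 and Gad gates, 2.072 for Chrna6 in the Chat gate, -1.926 for Chrna2 and -1.203 for Chrnb3 in the Gjd2 gate, and 0.3553 for Chrnb3 in the Cxcl14 gate. Batch 1 was a single library and gave no value.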

How the results depend on the processing

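Counts of called genes changed by over 1.5 times as follows. Between the Slc6a9 and Gad gates 5 subunit genes were called, and 8 without the filter on low counts (6887 and 8052 over all genes). In the Chat gate the count of 3 became 1 in batch 3 alone and 5 without cells bearing ganglion, bipolar or Müller markers. Over all genes the count was 3966, and it became 1408 and 3710. Because Dkk3 (506 CPM) and Glul (338 CPM) of the Müller list are expressed by amacrine cells, leaving out marker-bearing cells removed many cells. A version with 3 Müller genes was therefore added after seeing the data. Under it 5, 4, 5, 4, 4 and 7 subunit genes were called in the Slc6a9, Chat, Gjd2, Slc17a8, Vip and Cxcl14 comparisons. In the Gjd2 gate the count of 4 became 1 within the Slc6a9 gate, where 2 subunit genes were tested (5633 and 3199 over all genes). The same alternative for the Slc17a8 gate gave no value. In the Vip gate the count of 5 became 3 in batch 3 alone, 2 without the marker-bearing cells and 3 within the Gad gate. Over all genes the count was 2928, and it became 1806, 1521 and 2500. Co-detection was called for 9 pairs, 18 at 3000 UMIs, 23 without thinning and 5 among pairs with at least 5 expected joint cells (chosen after seeing the data). Of the 9 pairs, 4 had no joint cell. Of the 18 and the 23, 10 and 20 had at least 5 expected joint cells. Leaving out each library in turn gave 5 to 6 (Slc6a9 against Gad), 3 to 4 (Chat), 4 to 5 (Gjd2), 3 to 4 (Slc17a8), 4 to 5 (Vip), 7 to 7 (Cxcl14) and 9 to 11 (co-detection).

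Of the values of single genes and pairs, 839 were counted as unchanged, 29 became called, 44 lost the call and 18 changed sign, and the cause was not tested. Unchanged means on the same side of the threshold, except for pairs in batch 2 or batch 3 alone. There the permutation p cannot fall under 0.05, and unchanged means a difference that moved by less than its SD over the libraries. Chrnb2 between the Slc6a9 and Gad gates changed to 0.11 in batch 3, 0.12 without marker-bearing cells, 0.020 without the 5% of cells with the most UMIs, and ranged from -0.04693 to 0.008158 with each library left out, above 0 without library 4 (0.008158) or 5 (0.006712). Chrnb2 changed to -0.092 in batch 3 and -0.37 within the Slc6a9 gate (Gjd2 gate), and to 0.016 in batch 2 (Vip gate). In the Chat gate Chrna6 changed to -0.54 in batch 2 and to -0.56 with 1 UMI more in the gate, and Chrna3 to 0.68 in batch 3. Chrna4 in the Cxcl14 gate changed to -0.077 without the 5% of cells with the most UMIs. As differences in percent of cells, Chrna5 with Chrnb4 changed to 1.638 at 3000 UMIs and 1.499 without thinning. In Gad-gated cells alone, Chrna3 with Chrnb4 changed to -0.02506, Chrna2 with Chrnb4 to -0.02569, Chrna3 with Chrna4 to -0.3554 and Chrna2 with Chrna3 to -0.2267.

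The main fits pair the cells of each library through a library block. Without the replicate block, 5, 3, 3, 3, 4 and 6 subunit genes were called in the Slc6a9, Chat, Gjd2, Slc17a8, Vip and Cxcl14 comparisons. Over all genes the counts were 5877, 3722, 4533, 2567, 2257 and 5304, against 6887, 3966, 5633, 2880, 2928 and 7634 with the block. The calls of Chrnb3 in the Gjd2 gate (-0.39) and Vip gate (0.33) and of Chrna4 in the Slc17a8 gate (-0.69) and Cxcl14 gate (0.23) were lost.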
